A study of Mus musculus with 6 samples.

Results

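The genes of the renin-angiotensin system were followed in mouse liver after deletion of LKB1, the serine/threonine kinase encoded by Stk11. The members are the 7 genes Ren1, Agt, Ace, Atp6ap2, Agtr1a, Enpep and Mme, out of 55450 genes in the deposited count table, and all 7 were found by symbol and passed the filter on low counts. They were chosen by the measured counts of Ren1, at the floor in wild-type (WT) liver and high in knockout (KO) liver, and the substrate, the peptidases and the receptors were set beside it for their roles. The difference of Ren1 between KO and WT is therefore a description and carries no test.

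Per the labels, the 3 KO mice carried loxP-flanked (fl/fl) LKB1 alleles and the 3 WT mice carried normal alleles, all of strain C57BL/J. Both groups received Cre recombinase, which removes DNA between loxP sites, in an adeno-associated virus of serotype 8 (AAV8) at 6 weeks of age. The left liver lobe was taken 4 weeks later, at 10 weeks of age, and poly(A) RNA was sequenced with 1 library per mouse. The promoter that drives Cre is not given in the sources used here, AAV8 is used to reach hepatocytes, and both groups carry the virus, so no group is without it.

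Renin is a secreted aspartic protease that cuts angiotensinogen, a plasma protein made mainly by hepatocytes, to release the inactive peptide angiotensin I. Angiotensin-converting enzyme trims angiotensin I to angiotensin II, which raises blood pressure and aldosterone secretion through the AT1 receptor, and other peptidases trim or divert these peptides. In the adult, circulating renin comes mainly from the juxtaglomerular cells of the kidney, and the liver is known as the source of the substrate.

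Library totals ran from 47659122 to 56147667 counts, and levels below are CPM, counts divided by library sizes after TMM normalisation in edgeR. Stk11 was at 22.1, 14.4 and 11.4 CPM in KO 1 to 3 and at 64.2 to 69.7 CPM in WT, with no overlap. Replicate 1 of each group had at least 29243 counts of Xist and at most 6 of 4 Y-linked genes, whereas the other 4 libraries had at most 16 Xist counts and at least 6146 Y-linked counts. They are called the Xist pair and the Y-linked libraries. KO 1 thus differed from KO 2 and KO 3 both in this state and in having the highest remaining Stk11, and these cannot be told apart. Tests are edgeR's quasi-likelihood test over all 14539 genes that passed the filter, with Benjamini-Hochberg adjustment and a threshold of 0.05. In bulk tissue fewer cells of a type and less RNA per cell cannot be told apart.

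Ren1 (ENSMUSG00000070645.5, GRCm38 chromosome 1, 133350510 to 133360325, plus strand) encodes renin. The submitters name build mm9, but every versioned gene identifier of the table is in GENCODE M21 for GRCm38, from which all positions here come. Ren1 had 11141, 2897 and 1613 counts in KO 1 to 3 and 3, 0 and 4 counts in WT 1 to 3. These are 191, 52.2 and 34.2 CPM in KO and 0.0591, 0 and 0.0855 CPM in WT, where 3 counts correspond to 0.0515 to 0.0641 CPM. Every KO library was far above every WT library, and KO 1 was 5.58-fold above KO 3, so the KO libraries also differed widely among themselves. Pooled over libraries, 15651 KO counts, of which KO 1 gave 11141, against 7 WT counts made a 2075-fold difference. Its 95% exact interval from 1007 to 5161 covers counting error only, not the spread between mice. The interval is no test, since Ren1 was chosen for this difference. The Ren1 log2 fold change of 10.87 was the largest rise among all genes tested. It lay between 9.77 and 11.5 whichever library or setting was changed.

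The position of renin among liver transcripts moved with it. The mean of Ren1 was above 0.289% of tested genes in WT and above 89.7% in KO. Ren1 passed the filter on low counts through its KO libraries and was chosen for its floor in WT. Its low place in WT thus follows from the choice, and both places are a description. Some mouse strains carry a second, near-identical renin gene, Ren2, which is not a row of this table, so reads of such a copy would be counted as Ren1 or lost.

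The promoter windows of Ren1 and Agt are shown because enzyme and substrate are the members with the highest KO levels per length. Both are the 250 bases before the start in RefSeq, build GRCm38.p6, written 5′ to 3′. Capitals mark the TATA box letters TATAAA. The Ren1 window is chr1:133350424-133350673 on the plus strand and the Agt window is chr8:124569707-124569956 on the minus strand. RefSeq places the Ren1 start later than the GENCODE start at 133350510, so the Ren1 window lies partly inside the gene as given above.
Ren1: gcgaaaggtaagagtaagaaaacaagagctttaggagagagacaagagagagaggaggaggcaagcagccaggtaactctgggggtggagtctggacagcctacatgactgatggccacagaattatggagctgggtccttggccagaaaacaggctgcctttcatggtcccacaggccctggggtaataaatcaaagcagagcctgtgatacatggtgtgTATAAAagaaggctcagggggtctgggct
Agt: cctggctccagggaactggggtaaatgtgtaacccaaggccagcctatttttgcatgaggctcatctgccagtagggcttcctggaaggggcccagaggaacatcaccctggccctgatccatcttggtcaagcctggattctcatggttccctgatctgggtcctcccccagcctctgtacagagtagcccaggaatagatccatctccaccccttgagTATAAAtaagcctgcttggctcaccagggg

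TATAAA lies at -29 from the start in Ren1 and at -30 in Agt, and 12.4% of all 32851 promoter windows of this length hold these letters on either strand, as do Ace at -31 and Enpep at -52 in the reverse direction. Windows were at hand for 6 of the 7 members, all but Agtr1a, with several starts for Ace and Mme. The cAMP response element TGACGTCA, held by 1.55% of windows on either strand, was in none of these members' windows. Its shorter form TGACG, held by 17.8% and contained in the full element, was found only in Atp6ap2, at -62. A match of letters is a description and not a binding site. The letters TTCNNNGAA, which STAT factors can bind, were in Agt at -172, in Enpep at -141 and in the first window of Mme at -166, against 7.02% of all windows. AGGTCA, a nuclear receptor half-site held by 14.0% of windows, was in the second Ace window alone, at -50.

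**Figure D1:**
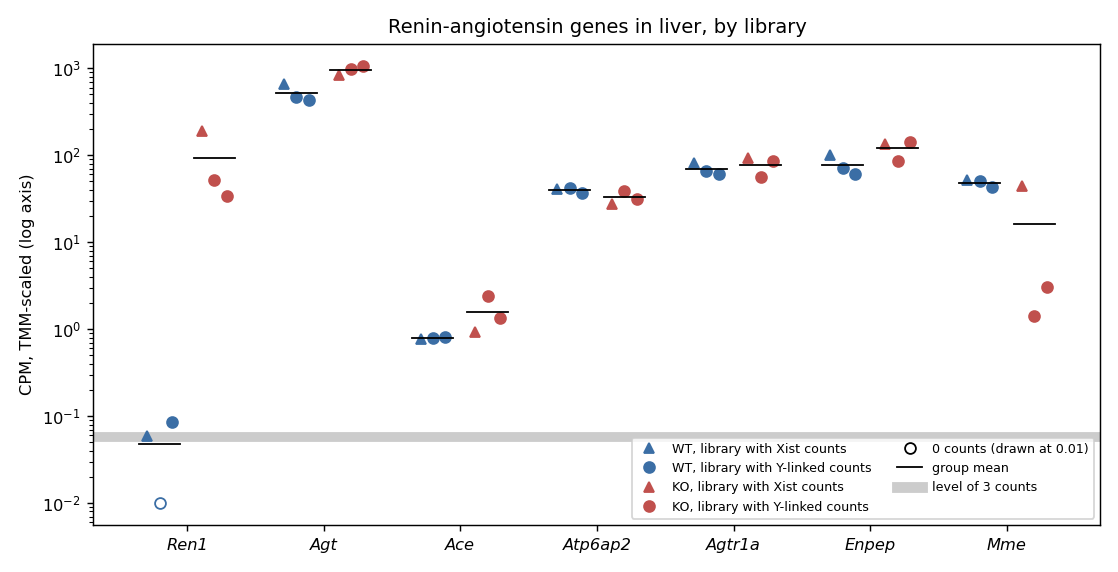
CPM of the 7 members in each library on a log axis, WT in blue and KO in red, with triangles for the libraries with Xist counts, circles for those with Y-linked counts and a line at each group mean. Ren1 lies at or near the level of 3 counts in WT and between 34.2 and 191 CPM in KO, and Mme is low in KO 2 and KO 3 only.

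Among the 6 genes set beside Ren1, 0 passed the threshold in edgeR over the 6 libraries, where 3.37% of all genes tested did (2.15% higher and 1.22% lower). An unadjusted p under 0.05 was found for 3 of them, as for 26.3% of all genes, DESeq2 called 1 and limma voom called 0. Over all genes tested DESeq2 called far more genes than edgeR. Its counts, here and for every list below, therefore do not stand against the edgeR share. Their median log2 fold change was 0.41, against 0.01 over all genes tested, and 4 were positive and 2 negative. The KO and WT libraries did not overlap for 2 of the 6, Agt and Ace, both higher in KO, against 32.4% of all genes tested in either direction (16.9% above WT and 15.5% below). Restricted to the 4 Y-linked libraries (2 against 2), 3 of the 6 passed, where 33.3% of all genes did. These were Agt and Ace, higher as were 17.2% of all genes, and Mme, lower as were 16.1%. Without KO 1 the count was likewise 3. Leaving out KO 1 also raised the number called among all genes, close to that of the Y-linked libraries.

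Agt (ENSMUSG00000031980.9, chromosome 8, 124556534 to 124569706, minus strand) encodes angiotensinogen, the only known substrate of renin. It was at 832, 978 and 1065 CPM in KO 1 to 3 and at 655, 466 and 427 CPM in WT 1 to 3. The lowest KO library was above the highest WT library, and WT 1 and KO 1 were the closest pair. KO minus WT was 0.89 ± 0.228 on the log2 scale (SE; 95% interval 0.35 to 1.43), and the edgeR adjusted p was 0.0755. Within the Y-linked libraries it was 1.19 (edgeR adjusted p = 0.00637), and KO 1 over WT 1 gave a log2 ratio of 0.35. The interaction of genotype with this state had an edgeR adjusted p of 0.199, and its estimate was -0.85. The edgeR adjusted p of the Agt log2 fold change was 0.0214 without KO 1, and with DESeq2 it was 0.00235.

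Hepatocyte markers were set beside Agt, and their part in its result was not tested. Summed over the 5 markers Alb, Apoa1, Ttr, Serpina1c and Hnf4a, the level was 16580 to 61365 CPM in KO and 75435 to 112991 CPM in WT. Alb made up most of this sum, at 10394.5 to 50549.7 CPM in KO and 57064.1 to 95625.6 CPM in WT. Serpina1c overlapped between groups, at 2768 to 4336 CPM in KO and 3978 to 7124 CPM in WT. Alb, Apoa1 and Ttr, all secreted plasma proteins, were lower in every KO library than in every WT library, whereas Hnf4a was at 542 to 670 CPM in KO and 524 to 539 CPM in WT. edgeR called 0 of the 5, limma voom 1 and DESeq2 3, and 2 had an unadjusted p under 0.05. Over all genes tested edgeR called 3.37%, 26.3% had such a p and 15.5% lay below WT in every KO library. DESeq2 called far more of all genes than edgeR, so its count does not stand against the edgeR share. Of 13 factors known to act on Agt transcription, 0 were called by edgeR, 5 had an unadjusted p under 0.05, DESeq2 called 2 and limma voom 0. Stat3, an acute phase factor, was at 134.8 ± 23.5 CPM in KO and 95.9 ± 1.31 CPM in WT (SD, n = 3). The glucocorticoid receptor Nr3c1 was at 67.8 ± 5.96 and 98.4 ± 4.84 CPM. Their edgeR adjusted p-values were 0.118 and 0.0637. The 2 further factors with the smallest p, Cebpa and Thrb, had log2 fold changes of -0.56 and -0.51 and adjusted p-values of 0.107 and 0.138 in edgeR.

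Ace (ENSMUSG00000020681.14, chromosome 11, 105967945 to 105989964, plus strand) encodes angiotensin-converting enzyme, which is known for its place on endothelial cells. It had 54, 132 and 64 counts in KO and 39, 41 and 38 in WT. These were 0.926, 2.38 and 1.36 CPM in KO and 0.769, 0.791 and 0.812 CPM in WT. The groups did not overlap, but KO 1 was close to WT and the level was low throughout. The log2 fold change was 0.97 ± 0.393 (SE; edgeR adjusted p = 0.176), and the Ace log2 fold change was 1.24 (adjusted p = 0.034) without KO 1 and 0.53 (adjusted p = 0.426) without KO 2. Endothelial markers were set beside Ace, and their part in its result was not tested. All 12 endothelial markers had a negative log2 fold change, with a median of -0.74. In every KO library 10 lay below WT, where 15.5% of all genes tested did. The summed level of the 12 was 135 to 210 CPM in KO and 255 to 347 CPM in WT. edgeR and limma voom called 0 of the 12, DESeq2 called 5, and 9 had an unadjusted p under 0.05. Over all genes tested edgeR called 3.37%, and 26.3% had such a p. The DESeq2 count does not stand against the edgeR share, since DESeq2 called far more of all genes. The antisense gene Gm11651 overlaps Ace and had no counts.

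Atp6ap2 (ENSMUSG00000031007.2, chromosome X, 12587801 to 12617049, plus strand) encodes the (pro)renin receptor, which is also an accessory part of the vacuolar proton pump. It was at 27.7, 38.5 and 31.6 CPM in KO and 40.4, 42.4 and 36.6 CPM in WT, so the groups overlapped. The log2 fold change of -0.29 ± 0.151 (SE) had a 95% interval from -0.64 to 0.07 and an edgeR adjusted p of 0.273.

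Agtr1a (ENSMUSG00000049115.15, chromosome 13, 30336441 to 30382867, plus strand) encodes the main AT1 receptor of rodents. It was at 92.6, 55.9 and 84.8 CPM in KO and 82.1, 65.2 and 61.5 CPM in WT, and KO 2 was the lowest of the 6 libraries. Its log2 fold change was 0.16 ± 0.219 (SE; edgeR adjusted p = 0.671), with a 95% interval from -0.36 to 0.68. Of 13 genes of AT1 receptor signalling, 0 were called by edgeR, where 3.37% of all genes tested were. DESeq2 called 1 and limma voom 0, and 3 of the 13 had an unadjusted p under 0.05, where 26.3% of all genes did. The 4 with the smallest p were the G protein subunit Gna12, the kinase Jak2, the G protein regulator Rgs2 and the arrestin Arrb1. Gna12 had the smallest, at 60.9 ± 15.2 CPM in KO and 130.5 ± 39.1 CPM in WT (SD, n = 3; edgeR adjusted p = 0.0756). The log2 fold changes of Jak2, Rgs2 and Arrb1 were -0.44, 1.31 and -0.57, with edgeR adjusted p-values of 0.113, 0.185 and 0.197. Rgs2 was at 13.9 CPM in KO 2 against 4.01 and 3.59 CPM in KO 1 and KO 3, and without KO 2 the Rgs2 log2 fold change was 0.41.

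Enpep (ENSMUSG00000028024.14, chromosome 3, 129269175 to 129332720, minus strand) encodes aminopeptidase A, which turns angiotensin II into angiotensin III. It was at 134.8, 86.4 and 144 CPM in KO and 99.2, 71.2 and 60.3 CPM in WT. KO 1 and KO 3 were above all WT libraries, and KO 2 was below WT 1. KO minus WT was 0.66 ± 0.261 on the log2 scale (SE; 95% interval 0.04 to 1.28), and the edgeR adjusted p was 0.168. The ratio had the same sign within both kinds of library, 0.81 among the Y-linked libraries and 0.44 for KO 1 over WT 1.

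Mme (ENSMUSG00000027820.12, chromosome 3, 63241537 to 63386030, plus strand) encodes neprilysin, a membrane metallopeptidase that cleaves angiotensin I and many other small peptides. It had 2548 counts in KO 1 but 79 and 145 in KO 2 and KO 3, and 2612, 2602 and 2034 in WT 1 to 3. In CPM these were 43.7, 1.42 and 3.08 in KO and 51.5, 50.2 and 43.5 in WT. KO 1 thus lay within the WT range, and KO 2 was 30.7-fold below KO 1. Over all 6 libraries KO minus WT was -1.59 ± 1.13 on the log2 scale (SE; edgeR adjusted p = 0.403). Within the Y-linked libraries it was -4.40 ± 0.347 (SE; edgeR adjusted p = 0.00116), and KO 1 over WT 1 gave a log2 ratio of -0.24. The interaction of genotype with library state was 4.16 on the log2 scale, with a 95% interval from 2.84 to 5.48 and an edgeR adjusted p of 0.0233. Such an interaction was called for 2.9% of all genes tested (20.9% at an unadjusted p under 0.05), and Mme was the only member among them. The Xist pair holds a single KO and a single WT library, so the interaction rests on KO 1. The summed level of 7 Kupffer cell markers, the resident macrophages of liver, was 227 CPM in KO 1, 131 and 102 CPM in KO 2 and KO 3 and 141 to 194 CPM in WT. Their median log2 ratio was -0.91 within the Y-linked libraries and 0.35 for KO 1 over WT 1. Marco, among them, had the opposite signs, at 0.94 and -0.18. The part of these markers in the result for Mme was not tested.

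**Figure D2:**
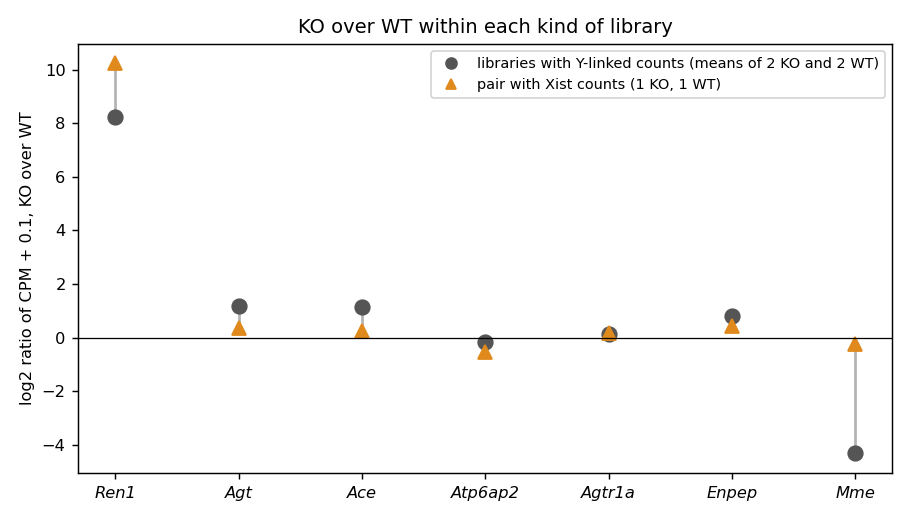
Log2 ratio of KO over WT for each member, on CPM with an offset of 0.1, for the 4 Y-linked libraries (circles) and the Xist pair (triangles). The points of Mme lie apart, at -4.32 and -0.24, and those of Agtr1a nearly coincide, at 0.15 and 0.17.

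Levels were set beside each other per kb of annotated exon sequence. In WT the order was Agt at 273 ± 64.3 CPM per kb, Agtr1a at 25.0 ± 3.94, Enpep at 16.3 ± 4.27, Atp6ap2 at 15.2 ± 1.13, Mme at 4.19 ± 0.372, Ace at 0.150 ± 0.00412 and Ren1 at 0.0291 ± 0.0264 (SD, n = 3). Enpep and Atp6ap2 overlapped in WT, while the others were apart from the next in that order within every WT library. In KO the order was Agt at 507 ± 62.4, Ren1 at 55.8 ± 51.8, Agtr1a at 27.9 ± 6.93, Enpep at 25.8 ± 6.54, Atp6ap2 at 12.5 ± 2.09, Mme at 1.39 ± 2.08 and Ace at 0.294 ± 0.141 CPM per kb. Ren1, Agtr1a and Enpep overlapped in KO, as did Mme and Ace. In KO 3 Ren1 was at 20.7 CPM per kb, below Agtr1a at 30.4.

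The rest of the pathway was taken from a list of 20 genes for other angiotensin receptors and peptidases. Of these 19 were in the table and 10 were tested, and edgeR called 0 of them, where 3.37% of all genes were called. An unadjusted p under 0.05 was found for 4, where 26.3% of all genes had one, DESeq2 called 2 and limma voom 0. Their median log2 fold change was -0.16. Agtr1b, Agtr2 (the AT2 receptor), Mrgprd and Ctsg had 0 counts in all 6 libraries, which allows up to 0.0641 CPM. Mas1, the receptor of the heptapeptide made from angiotensin II, had at most 0.231 CPM. Cma1, Mcpt4, Cpa3 and Klk1 had at most 0.0771 CPM.

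Peptidases that shorten the peptides further were more abundant. Anpep, aminopeptidase N, was at 102, 77.3 and 78.6 CPM in KO and 134, 118 and 122 CPM in WT, and Ctsa, cathepsin A, was at 81.3, 69.2 and 58.4 against 103, 107 and 98.5 CPM. Every KO library lay below every WT library for both. Their log2 fold changes were -0.53 ± 0.157 and -0.56 ± 0.152 (SE), with edgeR adjusted p-values of 0.097 and 0.0836. Both passed within the Y-linked libraries (adjusted p = 0.0106 and 0.0138) and without KO 1. In each of these settings far more of all genes passed than over the 6 libraries, with 33.3% in the Y-linked libraries. Prcp, Prep and Rnpep also lay below WT in every KO library, with log2 fold changes of -0.48, -0.27 and -0.32 and adjusted p-values of 0.159, 0.21 and 0.138. Over all genes tested 15.5% lay below WT in this way. Lnpep, Thop1, Nln and Dpp3 overlapped between groups, with log2 fold changes from -0.05 to 0.15.

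**Figure D3:**
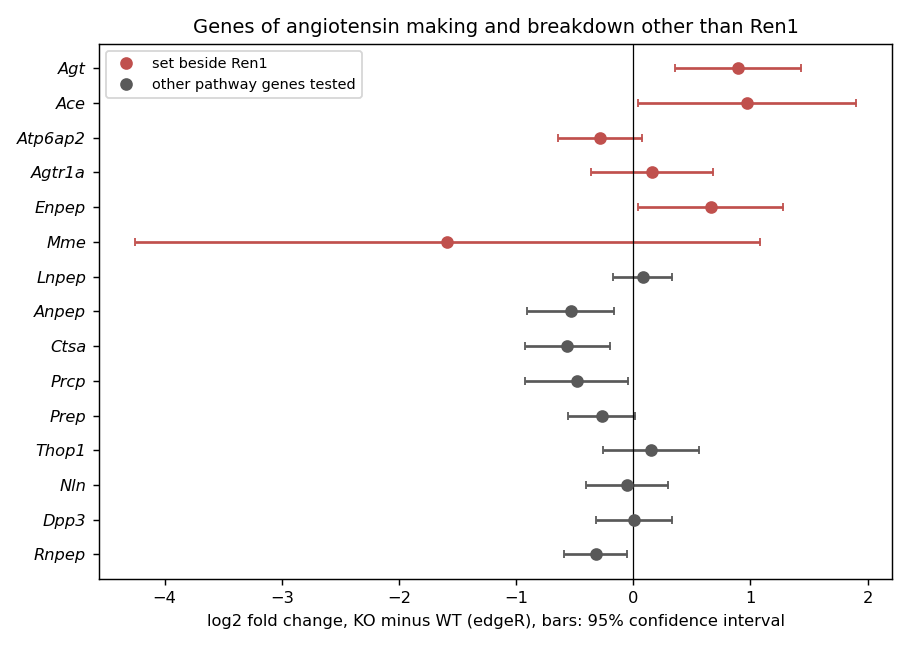
Log2 fold change of KO minus WT with its 95% confidence interval from edgeR for the 6 genes set beside Ren1 (red) and 9 of the other pathway genes tested (grey). The interval of Mme runs from -4.25 to 1.08, and those of Anpep and Ctsa lie below 0 although neither passed after adjustment.

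The annotated genes around Ren1 were examined for their own counts, with 3 on each side named by rule and Golt1a, the fourth on one side, added after its values were seen. Etnk2 (ethanolamine kinase, chromosome 1, 133363572 to 133380336), the next gene after Ren1, rose from 196 ± 17.5 CPM in WT to 1004 ± 262 CPM in KO (SD, n = 3). It was at 735, 1020 and 1257 CPM in KO 1 to 3 and 176, 210 and 202 CPM in WT. Its log2 fold change was 2.35 ± 0.245 (SE) and its edgeR adjusted p 0.0109. Unlike Ren1, Etnk2 was lowest in KO 1 among the KO libraries.

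On the other side, Golt1a (a Golgi transport gene, 133309800 to 133323026) rose from 8.68 ± 2.18 to 21.7 ± 2.67 CPM (SD, n = 3). Its log2 fold change was 1.32 (edgeR adjusted p = 0.0297). Both models of Gm28040, which start within Golt1a at 133309827 and end at 133329722 and 133329901, rose too. The longer one (ENSMUSG00000098306.9) was at 9.92, 11.02 and 13.7 CPM in KO and 0.315, 1.56 and 1.05 CPM in WT. Its log2 fold change was 3.56 (adjusted p = 0.0258), and that of the shorter one, at most 0.684 CPM, was 5.07 (adjusted p = 0.0261). These models overlap Golt1a and Kiss1, so how reads were divided among them is uncertain. Kiss1, the kisspeptin gene, had 0 counts.

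Sox13, the gene after Etnk2, was at 5.92 ± 1.61 CPM in KO and 5.92 ± 1.06 CPM in WT (SD, n = 3; edgeR adjusted p = 0.999), and Gm8596 had 0 counts. Plekha6, beyond Golt1a and outside the rule, had a log2 fold change of -0.07 (adjusted p = 0.849). Of the 3 annotated genes on each side of Ren1, 4 were tested and 3 were called, both Gm28040 models and Etnk2, where 2.15% of all genes were called as higher. The Gm28040 models share reads and are 1 locus. For these genes next to Ren1 past the threshold the count was 3 without KO 1, 2 without WT 1, 1 without KO 2 or KO 3 and 0 without WT 2 or WT 3, and 2 with the replicate number as a block. The Golt1a log2 fold change missed the threshold without KO 2, KO 3, WT 2 or WT 3 (edgeR adjusted p = 0.0643 to 0.163) and with that block (0.0663). The interaction with library state was not called for any of these genes in edgeR, with adjusted p-values from 0.142 to 0.690.

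**Figure D4:**
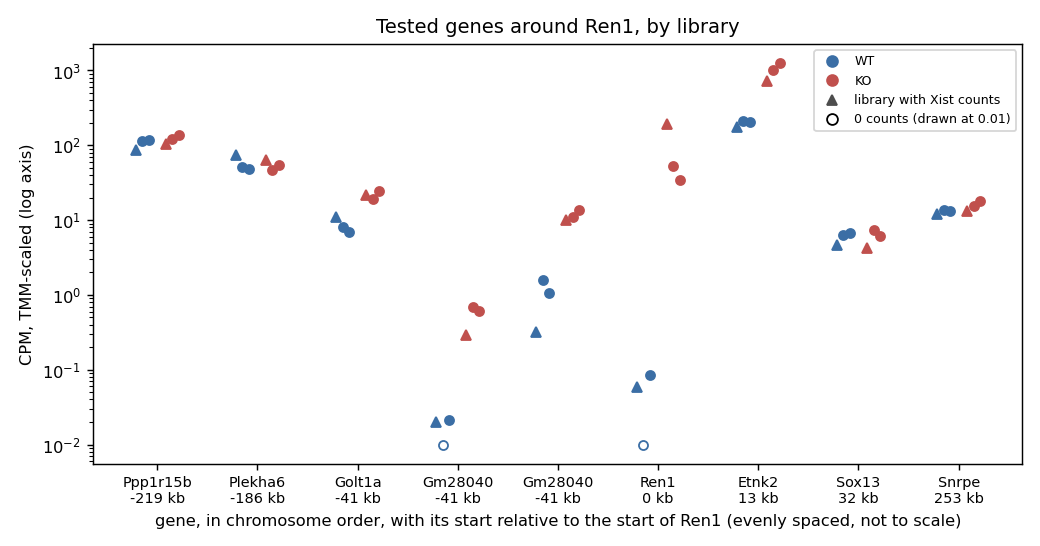
CPM in each library on a log axis for Ren1 and the tested genes around it, in chromosome order, with the start of each gene in kb from the start of Ren1. From Golt1a through Etnk2 every KO library (red) lies above every WT library (blue), while Plekha6 and Sox13 overlap.

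Markers of cells and organs known to make renin were looked at beside Ren1. Of 10 kidney genes, 7 had 0 counts in all 6 libraries, among them Kap, Umod, Slc12a1 and Aqp2, and the list summed to at most 0.0424 CPM in KO and 0.0964 CPM in WT. Of 6 adrenal cortex genes, 4 had 0 counts in all libraries, among them Cyp11b1 and Cyp11b2, and the sum was 0.774 to 1.27 CPM in KO and 0.877 to 1.08 CPM in WT. Star made up nearly all of this sum, at 0.756 to 1.27 CPM in KO and 0.855 to 1.08 CPM in WT. The 6 markers of juxtaglomerular cells, which liver vessels also express in part, summed to 35.8 to 89.2 CPM in KO and 30.1 to 48.4 CPM in WT. edgeR and limma voom called 0 of the 6. DESeq2, which called far more genes than edgeR over all genes tested, called 2. An unadjusted p under 0.05 was found for 2, where 26.3% of all genes had one. Akr1b7 made up 55.9 of the 89.2 CPM in KO 2 and was the only marker with a positive log2 fold change. The other 5 were negative, and the median of the list was -0.46. Gja5, the connexin of those cells, was at 0.382 to 0.515 CPM in KO and 0.771 to 1.24 CPM in WT.

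Akr1b7, an aldo-keto reductase known to be made with renin in juxtaglomerular cells, did not follow the order of Ren1. It was at 1.70, 55.9 and 14.4 CPM in KO 1 to 3 and 1.48, 0.154 and 0.150 CPM in WT. KO 1, the library with the most Ren1, had the least Akr1b7 of the KO libraries. The log2 fold change of Akr1b7 was 5.32 ± 1.46 (SE; edgeR adjusted p = 0.0853), and within the Y-linked libraries it was 7.83 (adjusted p = 0.00381). Its interaction with library state had an adjusted p of 0.0632 in edgeR.

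Of 28 genes known to act on renin transcription, 26 were tested and 1 was called by edgeR, where 3.37% of all genes tested were. An unadjusted p under 0.05 was found for 8 of the 26, where 26.3% of all genes had one. DESeq2, which called far more genes than edgeR over all genes tested, called 3, and limma voom, like edgeR, 1. The called gene was Crem, a cAMP-responsive modulator, at 45.8, 52.0 and 61.0 CPM in KO and 22.7, 28.1 and 21.6 CPM in WT. The Crem log2 fold change was 1.13 ± 0.163 (SE; edgeR adjusted p = 0.0255), and the adjusted p was 0.0628 to 0.14 when any 1 library other than KO 1 was left out and 0.0642 with the replicate number as a block. The list's median log2 fold change was -0.13. Nr2f2, Crtc3 and Nr1h2 came next by p, with log2 fold changes of -0.65, -0.60 and 0.34 and adjusted p-values of 0.0663, 0.0983 and 0.151 in edgeR. Nr1h3, encoding LXR alpha, was at 74.0 to 101 CPM in KO and 78.8 to 85.4 CPM in WT. The homeobox gene Hoxd10 had 0 counts.

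Downstream of angiotensin II, 4 of 8 genes of mineralocorticoid action were tested and 2 were called, in opposite directions. Over all genes tested 2.15% were called as higher and 1.22% as lower. Sgk1, a kinase that aldosterone and glucocorticoids induce, rose from 19.4 ± 1.57 CPM in WT to 169 ± 75.7 CPM in KO (SD, n = 3). KO 1 to 3 held 105, 252 and 150 CPM. Its log2 fold change was 3.12 ± 0.333 (SE; edgeR adjusted p = 0.0112). Nr3c2, the mineralocorticoid receptor, fell from 16.2 ± 1.51 to 7.48 ± 0.881 CPM. Its log2 fold change was -1.12 ± 0.147 (SE) and its edgeR adjusted p 0.0202, or 0.0663 with the replicate number as a block. Without WT 2 the adjusted p-values of Sgk1 and Nr3c2 were 0.102 and 0.138, and without KO 3 or WT 3 they also missed the threshold, as did Nr3c2 without KO 2. Hsd11b1, which activates glucocorticoids, was at 318, 93.8 and 199 CPM in KO and 428 to 643 CPM in WT (edgeR adjusted p = 0.111), and Scnn1a at 7.22 to 27.8 and 24.2 to 25.5 CPM (adjusted p = 0.453).

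By the standardised log2 CPM profile over the 6 libraries, the 5 genes most like Ren1 were Gm18860, Egln3, Pld6, Arhgef19 and Flt3l, at root mean square differences of 0.0564 to 0.112. Standardised profiles leave out size, and log2 fold changes were 1.24 for Pld6 and 0.86 for Arhgef19 against 10.87 for Ren1. Gm18860 is a processed pseudogene, so its level may depend on how shared reads were assigned, which was not examined. Egln3, an oxygen-dependent prolyl hydroxylase, was at 114, 99.2 and 80.1 CPM in KO and 15.3 to 18.2 CPM in WT. These 5 genes were picked for a profile like that of Ren1, so their KO and WT pattern is fixed by the choice. The genes most like Mme were Prdx4, Rfx4 and 2610528J11Rik, at 0.0459 to 0.0525. Rfx4 was at 8.37 CPM in KO 1, 0.378 and 0.828 CPM in KO 2 and KO 3 and 7.80 to 8.10 CPM in WT. This is the pattern of Mme, for which Rfx4 was picked, so the match is fixed by the choice. The genes most like Agt were Brca1, Gm26637 and Dync2li1 at 0.0471 to 0.0805, and those most like Enpep were Prr36, Echdc3 and Ampd2 at 0.121 to 0.143.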

How the data were processed

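Poly(A) RNA of 6 livers (3 KO, 3 WT, grouped by sample title) was analysed from 1 table of expected counts deposited by the authors for 55450 genes. The submitters' processing notes name bcl2fastq 2.17, cutadapt 1.18, STAR 2.7.0f, RSEM 1.3.1 and build mm9; the use of strand is not given in the sources used here. All 55450 versioned identifiers were found in GENCODE M21 for GRCm38, whose positions are printed. Expected counts estimate the reads of each gene and divide shared reads among genes. They were rounded, filtered with filterByExpr by group, scaled by TMM and tested with edgeR 4.0.16 (R 4.3.3, group as the only term, adjusted over 14539 genes). limma 3.58.1 (voom) and DESeq2 1.42.0 were alternatives, with other scalings, no filter, the replicate number as a block, a term for library state, subsets and each library left out. SE is the log2 fold change divided by the square root of F. The test was checked on simulated counts. All 6 columns were matched by description. Labels name separate mice, with no pairing. Named genes were the members, the rest of their pathway, 3 genes on each side of Ren1, the 4 smallest p-values of each list and the nearest profiles, computed with a prior count of 2. Gene lists were described by counts and medians, without a set test. Over all genes tested edgeR called 3.37%, and 26.3% had an unadjusted p under 0.05, against which the edgeR counts of each list stand. DESeq2 called far more of all genes than edgeR, so its counts do not stand against the edgeR share. The members and lists were chosen with earlier results of these data known. Some genes of the lists are counted but not reported here by name.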

Additional observations from a re-analysis of the deposited data

Results flagged for a closer look

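For 5 named genes the KO effect differed between the Xist pair and the Y-linked libraries, by edgeR's interaction test adjusted over all genes, which called 421 of 14539. For Mme the interaction was 4.16 (adjusted p = 0.0233), so its KO level was near WT in the pair and far below in the other libraries. The G protein gene Gna12 (1.40, adjusted p = 0.0452) had the same sign, as did the Kupffer cell markers Vsig4 (2.20, adjusted p = 0.0306) and Adgre1 (1.79, adjusted p = 0.0452). Vsig4 was at 22.8, 4.23 and 4.88 CPM in KO 1 to 3 and 12.2 to 16.6 CPM in WT. Another Kupffer cell marker, Marco, had a negative interaction of -1.14, which was not called (adjusted p = 0.152). Esr1, the estrogen receptor gene and a known activator of Agt (-1.80, adjusted p = 0.0181), had the other sign. It was at 51.9 and 48.9 CPM in KO 1 and WT 1, at 50.6 and 58.5 CPM in KO 2 and KO 3 and at 15.4 and 14.1 CPM in WT 2 and WT 3. Esr1, Vsig4, Adgre1 and Marco were named after their values were seen. All 5 called values rest on KO 1 and WT 1, with 1 library each.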

How the results depend on the processing

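The count among the 6 genes set beside Ren1 was 0 under 6 alternatives, 1 with DESeq2 (Agt) and 3 in the Y-linked libraries, and 0 to 3 without 1 library. For other renin-angiotensin genes past the threshold it was 0, but 2 with DESeq2, 1 with a term for library state (Anpep), 2 in the Y-linked libraries and 0 to 2 without 1 library. Of 14539 genes, all genes called higher in KO were 313 and all genes called lower in KO 177. These were 380 and 131 by library size alone, 485 and 286 without a filter, 1246 and 1006 with DESeq2, 779 and 725 with the state term and 2507 and 2340 in the Y-linked libraries. Without 1 library they ranged from 5 to 2372 and from 1 to 2101, lowest without WT 2 and highest without KO 1. With the replicate block they were 79 and 26. Deviations of same-numbered libraries correlated at 0.178, 0.0443 and 0.0679, and KO 2 and KO 3 each correlated best with another number. With 3 libraries per group these values cannot decide whether libraries were paired. DESeq2 gave no adjusted p for Mme. Values near 0 changed sign without reaching the threshold. The Dpp3 log2 fold change (0.01) was -0.00372 with DESeq2 size factors, -0.00214 unfiltered, -0.00267 with DESeq2, -0.0403 in the Y-linked libraries and -0.0949 to 0.0608 without 1 library. The Sox13 log2 fold change was 0.0536 by library size, 0.0527 in the Y-linked libraries and -0.184 to 0.192 without 1 library. Without 1 library the Nln log2 fold change ran from -0.176 to 0.0294 and the Napsa log2 fold change from -0.378 to 0.548. The causes were not tested. Settings for genes other than the members and their pathway were added after the data were seen. At 3 counts, or 0.0515 to 0.0641 CPM, depth limits Ren1 in WT and the receptors at 0.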

Other observations

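Atp6ap2 belongs to the vacuolar proton pump, and the 15 other pump genes listed split in direction. Of these 5 lay above WT in every KO library and 5 below, where 16.9% and 15.5% of all genes tested did. The median log2 fold change of the 15 was 0.03, and edgeR called 0, where 3.37% of all genes were called. An unadjusted p under 0.05 was found for 5, where 26.3% of all genes had one, DESeq2 called 1 and limma voom 0. Atp6v0e was at 26.7, 40.4 and 36.0 CPM in KO and 21.3 to 23.1 CPM in WT, and Atp6v1a at 40.3 to 44.8 against 51.7 to 60.6 CPM. The log2 fold changes of Atp6v0a1 and Atp6v1b2 were -0.41 and 0.47.

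Ace and Mme also degrade kinins. Of 9 kinin genes 8 were tested, and edgeR called 0 (1 at an unadjusted p under 0.05, 0 by DESeq2 and by limma voom). Kng1, the kininogen precursor, was at 1554, 669 and 887 CPM in KO and 1591 to 2151 CPM in WT, and Klkb1, plasma kallikrein, at 366, 80.0 and 215 against 396 to 453 CPM. The carboxypeptidase genes Cpn1 and Cpb2 had log2 fold changes of -0.50 and -0.29.

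Of 13 other surface or peptide-degrading peptidases 9 were tested, and edgeR called 0 (3 at an unadjusted p under 0.05, 1 by DESeq2, 0 by limma voom). Cpm, Ide and Cpd had log2 fold changes of 0.91, -0.57 and -0.34. Trhde had -2.12 over all libraries (edgeR adjusted p = 0.201), -3.80 within the Y-linked libraries (adjusted p = 0.00589) and a log2 ratio of 0.76 for KO 1 over WT 1, with an interaction of 4.71 (adjusted p = 0.0634). Of 6 aspartic proteases related to renin 4 were tested, and edgeR called 0 (0 at an unadjusted p under 0.05, 1 by DESeq2, 0 by limma voom). Ctsd, cathepsin D, was at 316 to 381 CPM in KO and 248 to 286 CPM in WT. Bace1, Bace2 and Napsa had log2 fold changes of 0.14, -0.39 and 0.02.

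The stellate, Kupffer, bile duct and mast cell lists had 0 genes called by edgeR, DESeq2 or limma voom, and 0 at an unadjusted p under 0.05 over the 6 libraries. Within the Y-linked libraries edgeR called 4 of 7 Kupffer, 2 of 8 stellate and 1 of 6 bile duct genes, where 33.3% of all genes were called. Of 5 mast cell genes only Kit was tested, and Kit was not called. Of the 4 Kupffer genes, Marco was higher in KO (log2 fold change 0.95, edgeR adjusted p = 0.0178) and the others were lower. All 8 stellate genes had a negative log2 fold change. Summed levels in KO and WT were 167 to 320 and 250 to 531 CPM for 8 stellate genes and 102 to 227 and 141 to 194 CPM for 7 Kupffer genes. They were 25.0 to 74.9 and 39.6 to 73.1 CPM for 6 bile duct genes. For 5 mast cell genes they were 2.40 to 3.56 and 3.55 to 4.97 CPM. Kit made up nearly all of the mast cell sum, at 2.37 to 3.55 CPM in KO and 3.51 to 4.91 CPM in WT. Cma1, Mcpt4, Cpa3 and Tpsb2 had at most 0.0641 CPM.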
